A study of Homo sapiens with 18 samples.

Results

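The 10 genes of the circadian clock described here were measured across the conditions of an RNA-sequencing experiment on glucocorticoid action in a breast cancer cell line. They are the repressors PER1, PER2, PER3, CRY1 and CRY2, the nuclear receptor repressors NR1D1 and NR1D2, the helix-loop-helix repressors BHLHE40 and BHLHE41, and the output activator DBP. They were chosen by symbol as a list of clock repressors and output factors, and make up 10 of the 60642 gene symbols with counts. MDA-MB-231 is an established human triple-negative breast cancer line, which lacks estrogen and progesterone receptors. Cells were transfected for 48 h with 25 nM of siRNA against HP1γ (siHP1γ), against PRMT5 (siPRMT5) or of a non-specific sequence (siNS), and were treated for 8 h with 100 nM of dexamethasone (Dex), a synthetic glucocorticoid, or with its vehicle ethanol (Eth). HP1γ is a chromatin protein encoded by CBX3, and PRMT5 is an arginine methyltransferase. The 6 conditions had 3 replicates each, which gives 18 libraries. All 6 share the transfection, so that no untransfected cells were compared, and all cells are of a single line. The comparisons ask which clock genes respond to Dex, which ones shift when either coregulator is depleted, and whether the depletions alter the Dex response.

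The clock of a mammalian cell is a feedback loop of transcription. CLOCK and BMAL1 bind E-boxes and activate the PER and CRY genes, whose proteins form complexes that return to the nucleus and repress their own activators, while NR1D1 and NR1D2 (REV-ERBα and REV-ERBβ) and the ROR receptors act in opposite directions on the gene of BMAL1. DBP and its relatives carry the rhythm to output genes through D-boxes. Glucocorticoids are a time cue for the clocks of peripheral tissues, PER1 and PER2 are textbook targets of the glucocorticoid receptor (GR), and a pulse of Dex is commonly used to align the clocks of cultured cells. RNA was taken at a single time, and the time of day or the phase of the cells at harvest is not given in the sources used here.

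The libraries held 8682992 to 12472381 counts each, and all 10 clock genes had enough counts to be tested. CBX3 averaged 256 ± 20.1 CPM (SD, n = 3; CPM gives a gene's reads relative to the size of its library) in siNS Eth cells and 9.89 ± 0.657 in siHP1γ Eth cells. PRMT5 averaged 249.2 ± 20 CPM in siNS Eth cells and 7.41 ± 1.17 in siPRMT5 Eth cells. The 6 markers of a mesenchymal line summed to 8620 to 12700 CPM, mostly VIM. In siNS Eth and siPRMT5 Eth cells AXL averaged 963 and 221 CPM, EGFR 247 and 148, CD44 809 and 717, and MSN 1524 and 1477. VIM (8355 and 9235 CPM) and CAV1 (554 and 600) were higher in siPRMT5 Eth cells. The 6 luminal markers summed to 16.2 to 30.4 CPM. Of these, ESR1 and PGR had at most 2 counts in any library and CDH1 was at 0 in 17 of the 18, whereas EPCAM (8.56 to 14 CPM), FOXA1 (3.26 to 10.3 CPM) and GATA3 (2.68 to 7.46 CPM) were at 0 in none. FOXA1 fell with Dex in siNS cells by a log2 fold change of -0.72 (adjusted p = 0.00885). Among markers of other cell types, those of leukocytes summed to 1.23 to 3.09 CPM, those of endothelium to 1.98 to 8.25 and those of fibroblasts to 2.9 to 15.5. The endothelial sum, mostly PECAM1, was 1.98 to 2.75 CPM in siNS Eth and 4.46 to 5.25 in siNS Dex cells. The fibroblast sum, mostly COL1A1, was 2.9 to 3.66 CPM in siNS Eth and 12.6 to 15.5 in siPRMT5 Eth cells. CD68 made up most of the leukocyte sum, at 1.23 to 3.07 CPM, and was at 0 in no library. PTPRC and DCN had at most 2 counts and LUM was at 0 in all 18 libraries. The part of these markers in the results below was not tested. CPM values are shares of a library's reads and do not account for transcript length, so levels are compared between conditions within a gene and not between genes. They cannot tell fewer cells that carry an mRNA from less of it in each cell.

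In siNS cells, Dex raised 3 of the 10 clock genes (comparison A), PER1, PER2 and CRY2, and lowered none past the thresholds, which asked for a change of 1.5-fold or more with an adjusted p-value below 0.01 in edgeR's quasi-likelihood test. Of all 15298 genes tested, 2.71% passed these thresholds, 1.65% higher and 1.06% lower. Upon Dex treatment PER1 rose 5.83-fold, PER2 2.15-fold and CRY2 1.87-fold. The median log2 fold change was 0.29 over the 10 clock genes and 0.0036 over all genes. The libraries of both treatments did not overlap for 5 of the 10 clock genes, and for 27.9% of all genes. With 3 libraries against 3, an exact two-sided permutation test of a single gene cannot go below p = 0.1, which every gene with separated libraries reached, so the adjusted p-values below are those of the fit across all genes. The study calls the replicates biological, without saying in the sources used here whether they were separate cultures, and the p-values measure only the spread between these samples.

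**Figure D1:**
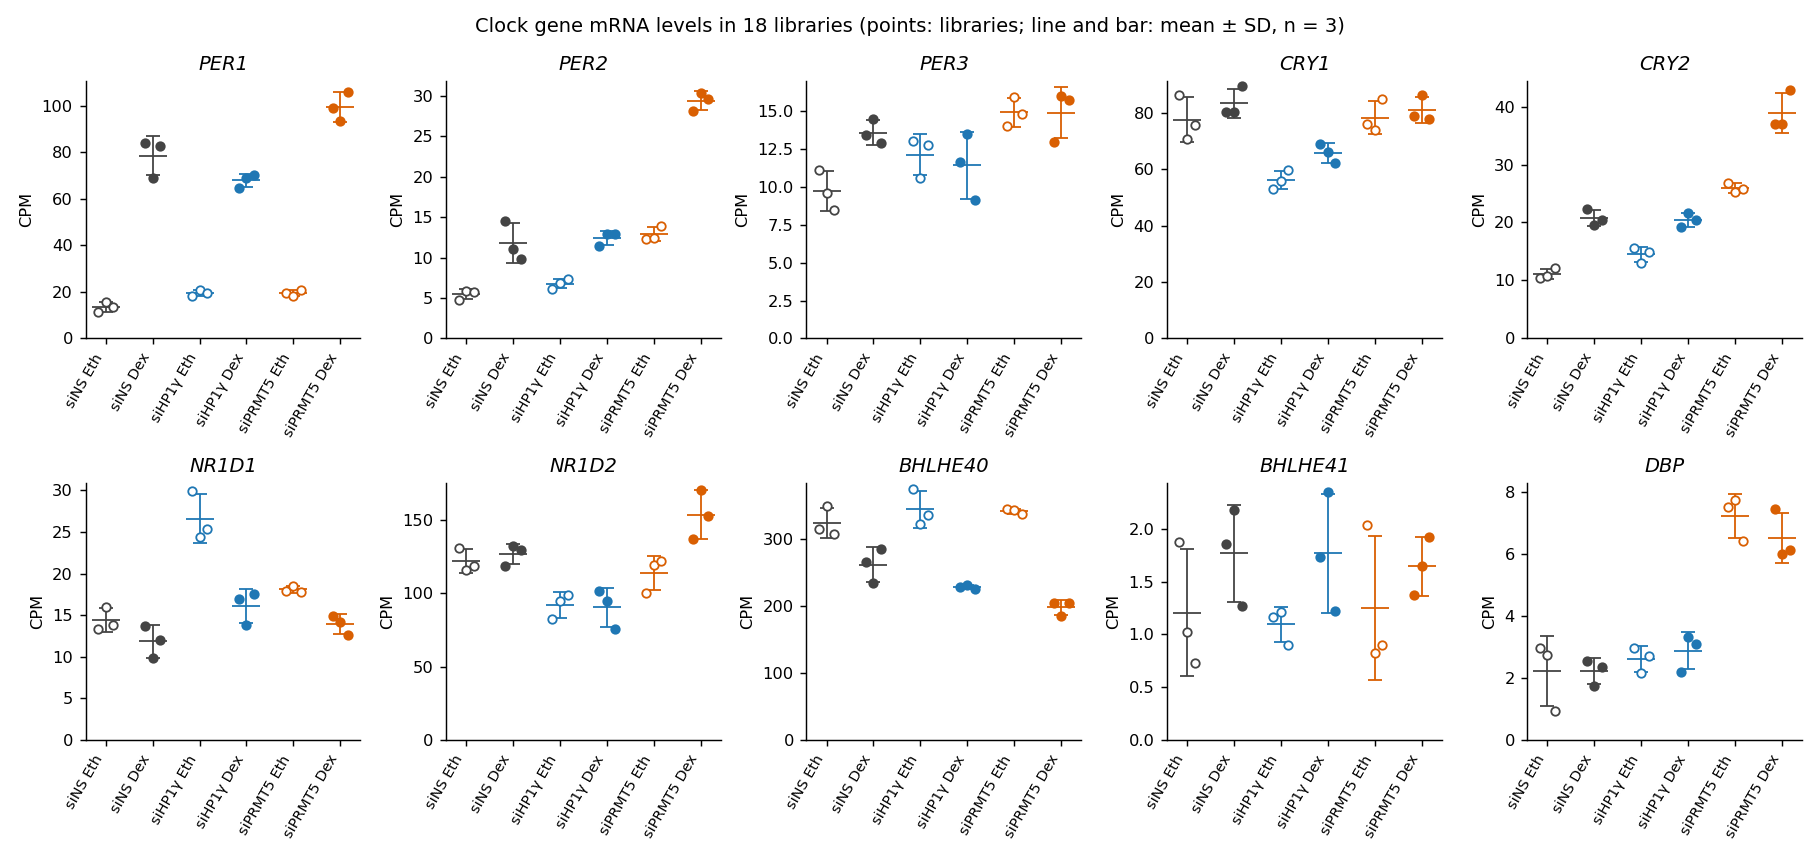
CPM (vertical axis of each panel, starting at 0) of the 10 clock genes in the 18 libraries, by siRNA and treatment. Points are libraries (open: Eth, filled: Dex), lines and bars are the mean ± SD of 3 libraries; PER1 stands between 64.8 and 106 CPM in every Dex library and between 11.1 and 20.9 in every Eth library.

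Of the PER genes, PER1 encodes a core repressor of the clock and lies on chromosome 17, at chr17:8140472-8156506 on the minus strand (hg38, GENCODE 44). Its level in siNS cells was 11.1, 15.7 and 13.5 CPM with Eth and 84.1, 68.9 and 82.5 CPM with Dex. In siHP1γ cells it was 18.3, 20.9 and 19.5 CPM with Eth and 64.8, 69.0 and 70.2 CPM with Dex. In siPRMT5 cells it was 19.4, 18.4 and 20.9 CPM with Eth and 99.1, 93.3 and 106 CPM with Dex. Every Dex library thus stood above every Eth library. In order of their means, siPRMT5 Dex cells stood highest, siNS Dex and siHP1γ Dex cells overlapped below them, siPRMT5 Eth and siHP1γ Eth cells overlapped far below those, and siNS Eth cells stood lowest and apart. The log2 fold change upon Dex treatment was 2.54 ± 0.107 (SE) in siNS cells (adjusted p = 1.06e-15), 1.79 ± 0.101 in siHP1γ cells (3.47-fold, adjusted p = 9.21e-13) and 2.34 ± 0.101 in siPRMT5 cells (5.06-fold, adjusted p = 1.56e-15).

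A search for the palindromic GR response element, GAACA and TGTTC with any 3 bases between them (its own reverse complement outside these bases), within 10000 bases of the annotated gene starts found it at 2 of the 10 clock genes, PER1 and PER2, and at 306 of 13559 tested genes with a position, or 2.26%. This search was added after the expression values were seen. It used a shorter form than the element of the promoter search below, AGAACA and TGTTCT with any 3 bases between. The match at PER2 extends to this longer form, whereas the one at PER1 has C in place of its last T. Genes with the longer form within this distance were not counted. The search used the GENCODE starts. The match at PER1 (chr17:8154461-8154473) lies within the annotated PER1 gene, outside exons, at 2039 bases from the GENCODE start and -2063 from the RefSeq start. The match at PER2 (chr2:238299773-238299785) lies at -9677 bases from the GENCODE start, within an exon of a long noncoding RNA. From the RefSeq start of PER2 it lies at -11169 bases, beyond the 10000 bases searched. A match of letters is not a binding site by itself, and GR binding was not measured in these libraries. Both are shown with 101 bases of hg38 on the minus strand, the strand of the genes, because PER1 and PER2 had the largest Dex responses among the clock genes, with the element in capitals. The stretches are chr17:8154417-8154517 and chr2:238299729-238299829.
PER1: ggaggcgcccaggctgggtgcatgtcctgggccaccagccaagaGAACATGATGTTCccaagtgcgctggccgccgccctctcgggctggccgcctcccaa
PER2: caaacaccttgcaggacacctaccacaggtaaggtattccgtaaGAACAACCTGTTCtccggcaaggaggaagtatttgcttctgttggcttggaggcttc

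PER2, the partner of PER1 in the repressor complex, lies at chr2:238244044-238290102 on the minus strand. It had 4.75, 5.91 and 5.80 CPM in siNS Eth cells and 14.6, 11 and 9.79 CPM in siNS Dex cells. It had 6.15, 6.83 and 7.30 CPM in siHP1γ Eth cells and 11.4, 12.9 and 12.9 CPM in siHP1γ Dex cells. It had 12.3, 12.4 and 13.9 CPM in siPRMT5 Eth cells and 28.2, 30.4 and 29.6 CPM in siPRMT5 Dex cells. Dex and Eth libraries were separate within each siRNA, and siPRMT5 cells without Dex overlapped siNS and siHP1γ cells with Dex. The log2 fold change upon Dex treatment was 1.10 ± 0.150 in siNS cells (adjusted p = 6.85e-06), 0.87 ± 0.141 in siHP1γ cells (adjusted p = 0.000148) and 1.19 ± 0.119 in siPRMT5 cells (adjusted p = 2.36e-08).

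PER3, the PER gene regarded as least needed for the rhythm, lies at chr1:7784291-7845177 on the plus strand and was at 8.49 to 11.1 CPM in siNS Eth cells and at 12.9 to 14.5 CPM in siNS Dex cells. These libraries did not overlap, but the log2 difference of 0.48 (95% interval 0.19 to 0.77, adjusted p = 0.0316) missed the thresholds. In siHP1γ cells the Dex difference was -0.09 (95% interval -0.37 to 0.20), and in siPRMT5 cells it was 0.00 (95% interval -0.27 to 0.27). In siPRMT5 cells PER3 stood at 14.1 to 16 CPM with Eth and at 13 to 16 CPM with Dex, above siNS Eth cells in all 6 libraries. The difference of its Dex response from siNS cells was -0.57 with siHP1γ (adjusted p = 0.153) and -0.48 with siPRMT5 (adjusted p = 0.172), so it was not shown to differ.

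Of the cryptochromes, which encode the other core of the repressor complex, CRY2 responded to Dex and CRY1 did not pass the thresholds. CRY2 (chr11:45847118-45883248, plus strand) had 10.5, 10.7 and 12.1 CPM in siNS Eth cells and 22.3, 19.5 and 20.4 CPM in siNS Dex cells. In siHP1γ cells it had 15.6, 13 and 14.9 CPM with Eth and 19.3, 21.6 and 20.4 CPM with Dex. In siPRMT5 cells it had 26.8, 25.2 and 25.8 CPM with Eth and 36.9, 36.9 and 42.8 CPM with Dex. The order of conditions was siPRMT5 Dex, siPRMT5 Eth, then siNS Dex and siHP1γ Dex with overlapping libraries, then siHP1γ Eth and siNS Eth. The log2 fold change upon Dex treatment was 0.90 ± 0.109 in siNS cells (adjusted p = 9.91e-07). It was 0.50 ± 0.103 in siHP1γ cells (1.41-fold, adjusted p = 0.00261) and 0.58 ± 0.0926 in siPRMT5 cells (1.49-fold, adjusted p = 4e-05), both short of the 1.5-fold limit. Without siPRMT5 Eth replicate 1, siPRMT5 Dex replicate 1 or siPRMT5 Dex replicate 2, the value in siPRMT5 cells was 0.60, 0.62 and 0.62 and passed. The difference of the CRY2 Dex response from siNS cells was -0.41 with siHP1γ (adjusted p = 0.172) and -0.32 with siPRMT5 (adjusted p = 0.215), and was not shown to differ.

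CRY1 (chr12:106991364-107093549, minus strand) had 86.2, 70.5 and 75.7 CPM in siNS Eth cells and 80.2, 80.3 and 89.4 CPM in siNS Dex cells. In siPRMT5 cells it had 73.8 to 84.8 CPM with Eth and 77.7 to 86.3 CPM with Dex, so these 4 conditions overlapped. In siHP1γ cells it had 53.0, 55.8 and 59.5 CPM with Eth and 69.0, 66.2 and 62.0 CPM with Dex, below every library of the other 4 conditions. Its Dex difference was 0.11 in siNS cells (95% interval -0.06 to 0.28), 0.23 in siHP1γ cells (95% interval 0.05 to 0.40, adjusted p = 0.13) and 0.05 in siPRMT5 cells (95% interval -0.12 to 0.22).

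**Figure D2:**
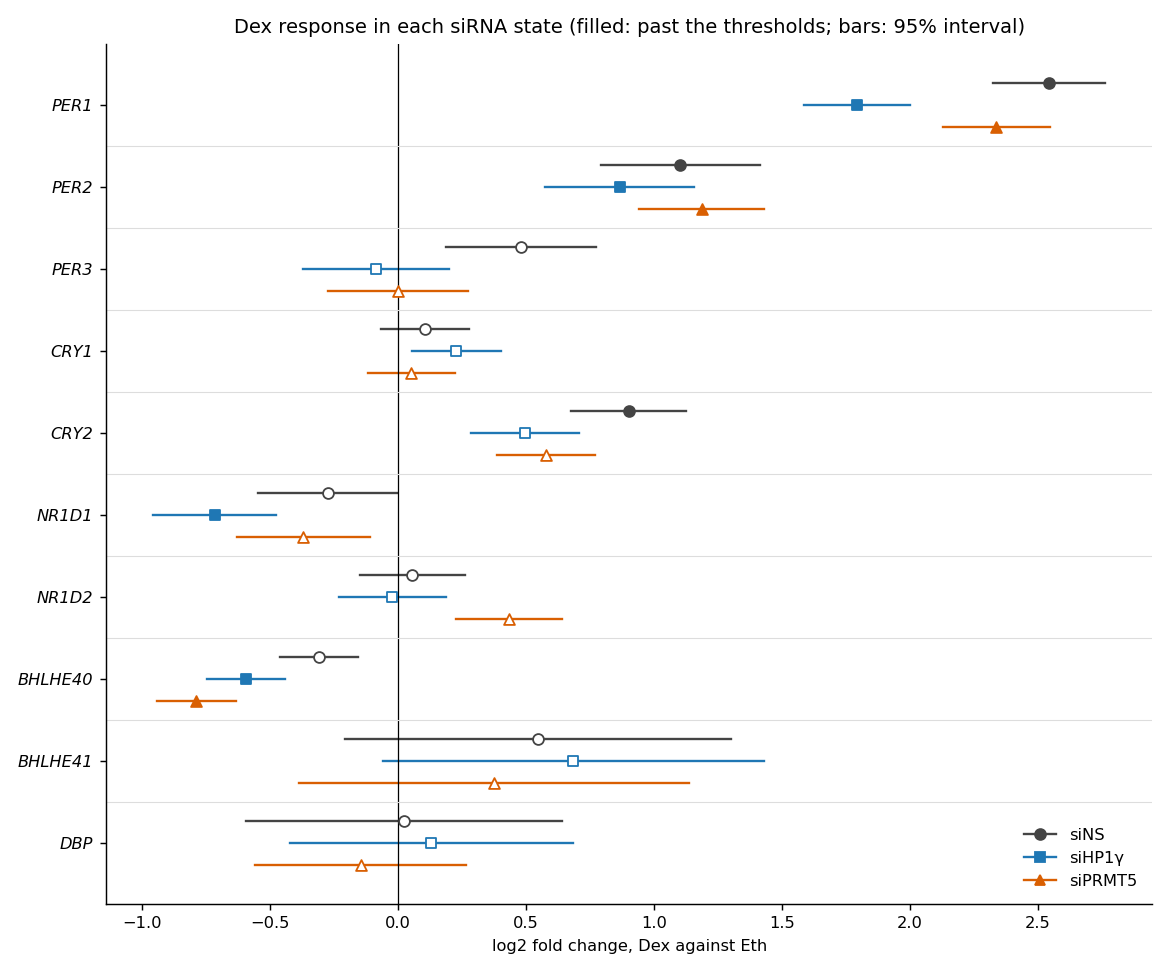
log2 fold change of Dex against Eth (horizontal axis) for the 10 clock genes in siNS, siHP1γ and siPRMT5 cells, with bars for the 95% interval. Filled marks passed both thresholds, on the adjusted p-value (0.01) and on the fold change (1.5); PER1 and PER2 are filled in all 3, at 2.54, 1.79 and 2.34 for PER1, and BHLHE40 lies below 0 in all 3.

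In depleted cells, the Dex responses past the thresholds included decreases. In siHP1γ cells 4 of the 10 clock genes passed, PER1 and PER2 higher and NR1D1 and BHLHE40 lower, against 1.67% of all genes (1.01% higher and 0.660% lower). In siPRMT5 cells 3 passed, PER1 and PER2 higher and BHLHE40 lower, against 5.44% of all genes (2.69% higher and 2.75% lower). PER1 and PER2 therefore passed in all 3 siRNA states. The libraries of both treatments did not overlap for 7 clock genes in siHP1γ cells and for 6 in siPRMT5 cells, against 21.8% and 28.7% of all genes.

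BHLHE40 (DEC1), which encodes a repressor that competes for E-boxes, lies at chr3:4979437-4985323 on the plus strand and was lower with Dex in every siRNA state. It had 316, 350 and 308 CPM in siNS Eth cells and 266, 235 and 286 CPM in siNS Dex cells. It had 375, 322 and 337 CPM in siHP1γ Eth cells and 228, 232 and 225 CPM in siHP1γ Dex cells. It had 345, 343 and 338 CPM in siPRMT5 Eth cells and 205, 185 and 205 CPM in siPRMT5 Dex cells. The Eth conditions overlapped, whereas the Dex conditions were separate from them and from each other, in the order siNS, siHP1γ, siPRMT5 from high to low. The log2 fold change was -0.31 ± 0.0741 in siNS cells (adjusted p = 0.00701, under the fold limit), -0.59 ± 0.0742 in siHP1γ cells (adjusted p = 3.24e-06) and -0.79 ± 0.0748 in siPRMT5 cells (adjusted p = 8.52e-09). In siHP1γ cells the fold change of 1.51 stood just past the limit, and fell short of it without siHP1γ Eth replicate 1 (-0.52), without siHP1γ Dex replicate 3 (-0.58) and with library sizes not scaled (-0.58). BHLHE40 shares 451 exon bases (12.8% of its exon length) with BHLHE40-AS1 on the opposite strand, and the strand setting of the counting is not given in the sources used here. The values of BHLHE40-AS1 were -0.31, -0.42 and -0.56 upon Dex treatment in siNS, siHP1γ and siPRMT5 cells, with adjusted p-values of 0.533, 0.393 and 0.163.

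The Dex response of BHLHE40 differed between siPRMT5 and siNS cells, with an interaction of -0.48 ± 0.105 on the log2 scale (adjusted p = 0.00854), against 3.80% of all genes with an interaction past an adjusted p-value of 0.05 (1.58% above 0 and 2.23% below). It was the only clock gene past this threshold for siPRMT5. With siHP1γ its interaction was -0.29 (95% interval -0.50 to -0.07, adjusted p = 0.167).

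The Dex response of PER1 differed between siHP1γ and siNS cells, with an interaction of -0.75 ± 0.148 (adjusted p = 0.0195), against 0.399% of all genes past the threshold (0.118% above 0 and 0.281% below). It was the only clock gene past the threshold for siHP1γ. The PER1 level with Dex was lower in siHP1γ than in siNS cells by a log2 difference of -0.21 (95% interval -0.39 to -0.03, adjusted p = 0.0898), and its level with Eth was higher by 0.54 ± 0.118 (adjusted p = 0.000981). Without siNS Dex replicate 2, which had the lowest PER1 level of its condition, the difference with Dex was -0.30 and passed (adjusted p = 0.0255). The call of the interaction was lost without siNS Eth replicate 1 (-0.63) or 3 (-0.74), without siNS Dex replicate 1 (-0.69) or 3 (-0.71) and without siHP1γ Eth replicate 2 (-0.70) or 3 (-0.75), with adjusted p-values of 0.0578 to 0.115. Of 3 GR target genes taken as references, the same interaction was -1.0 for TSC22D3 (adjusted p = 0.00104), -0.69 for KLF9 (adjusted p = 0.0229) and -0.44 for FKBP5 (adjusted p = 0.0588). With siPRMT5 the interaction of PER1 was -0.20 (95% interval -0.51 to 0.10, adjusted p = 0.491).

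NR1D1 and NR1D2 encode the REV-ERB receptors, which repress the gene of BMAL1. NR1D1 (chr17:40092793-40100589, minus strand) had 13.4, 16 and 13.9 CPM in siNS Eth cells and 13.7, 9.81 and 12.1 CPM in siNS Dex cells. It had 29.9, 24.4 and 25.4 CPM in siHP1γ Eth cells and 16.9, 13.8 and 17.6 CPM in siHP1γ Dex cells. It had 17.9, 18.5 and 17.8 CPM in siPRMT5 Eth cells and 15.0, 14.2 and 12.7 CPM in siPRMT5 Dex cells. The siHP1γ Eth libraries stood above all others, siPRMT5 Eth followed apart from them, and the other 4 conditions overlapped with their neighbours. Dex lowered NR1D1 in siHP1γ cells by a log2 fold change of -0.72 ± 0.116 (adjusted p = 0.000148). The differences of -0.27 in siNS cells (95% interval -0.55 to -0.0021, adjusted p = 0.219) and -0.37 in siPRMT5 cells (95% interval -0.63 to -0.11, adjusted p = 0.0457) missed the thresholds. The interaction with siHP1γ was -0.44 (adjusted p = 0.203), so the response was not shown to differ from that in siNS cells.

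NR1D1 overlaps THRA, the gene of thyroid hormone receptor α, on the opposite strand over 473 exon bases, 17.99% of its exon length. THRA was higher in siHP1γ than in siNS cells by 0.44 with Eth (adjusted p = 0.00183) and by 0.37 with Dex (adjusted p = 0.00706), and its Dex difference in siHP1γ cells was 0.19 (adjusted p = 0.326). The strand setting and the handling of reads over the shared bases are not given in the sources used here. The part of such reads in these values was not tested.

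NR1D2 (chr3:23945286-23980617, plus strand) had 131, 116 and 119 CPM in siNS Eth cells and 119, 132 and 130 CPM in siNS Dex cells. It had 82.4, 95 and 99.0 CPM in siHP1γ Eth cells and 102, 94.5 and 75.9 CPM in siHP1γ Dex cells. It had 100, 119 and 122 CPM in siPRMT5 Eth cells and 137, 171 and 153 CPM in siPRMT5 Dex cells. The siPRMT5 Dex libraries stood above all others, and both siHP1γ conditions overlapped at the low end. In siPRMT5 cells the Dex difference of 0.43 ± 0.0999 had an adjusted p-value of 0.00263 but was under the fold limit. It was 0.06 in siNS cells (95% interval -0.15 to 0.26) and -0.02 in siHP1γ cells (95% interval -0.23 to 0.19).

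Depletion of HP1γ moved 5 of the 10 clock genes in Eth cells past an adjusted p-value of 0.05, against 31.8% of all genes (16.5% higher and 15.2% lower), and 3 in Dex cells (comparison B), against 24.0% of all genes (11.7% higher and 12.3% lower). With library sizes not scaled, the calls over all genes were 3198 higher and 1814 lower with Eth and 2848 and 1269 with Dex, against 2531 and 2329 and 1787 and 1882 with TMM scaling. In Eth cells NR1D1, PER1 and CRY2 were higher, and CRY1 and NR1D2 lower. In Dex cells NR1D1 was higher, and CRY1 and NR1D2 were again lower. The median log2 difference of the 10 clock genes was 0.27 with Eth and -0.11 with Dex, beside 0.013 and 0.0049 over all genes. The libraries of depleted and siNS cells did not overlap for 6 clock genes with Eth and for 4 with Dex, against 45.5% and 36.9% of all genes.

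Upon siHP1γ NR1D1 was 1.84-fold higher with Eth (0.88 ± 0.121 on the log2 scale, adjusted p = 4.25e-06), the largest difference of the clock genes with that treatment, and 1.35-fold higher with Dex (0.43 ± 0.127, adjusted p = 0.014). The call with Dex was lost without siNS Dex replicate 2 (0.32, adjusted p = 0.105) and without siHP1γ Dex replicate 3 (0.37, adjusted p = 0.0581). CRY1 was lower by a log2 difference of -0.46 ± 0.0846 with Eth (adjusted p = 0.000148) and -0.34 ± 0.0828 with Dex (adjusted p = 0.00349), in all 6 siHP1γ libraries. NR1D2 was lower by -0.40 ± 0.101 with Eth (adjusted p = 0.00337) and -0.48 ± 0.101 with Dex (adjusted p = 0.000864). The REV-ERB genes thus stood on opposite sides of siNS cells, with NR1D1 above and NR1D2 below, with either treatment and also with library sizes not scaled. CRY2 was higher with Eth by 0.38 ± 0.114 (adjusted p = 0.0122), a call lost without siNS Eth replicate 1 (0.33, adjusted p = 0.0599) and without siHP1γ Eth replicate 1 (0.32, adjusted p = 0.0672). BHLHE40 with Dex missed the threshold at -0.20 (adjusted p = 0.0525), and passed without siNS Dex replicate 2 (-0.28, adjusted p = 0.0116).

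**Figure D3:**
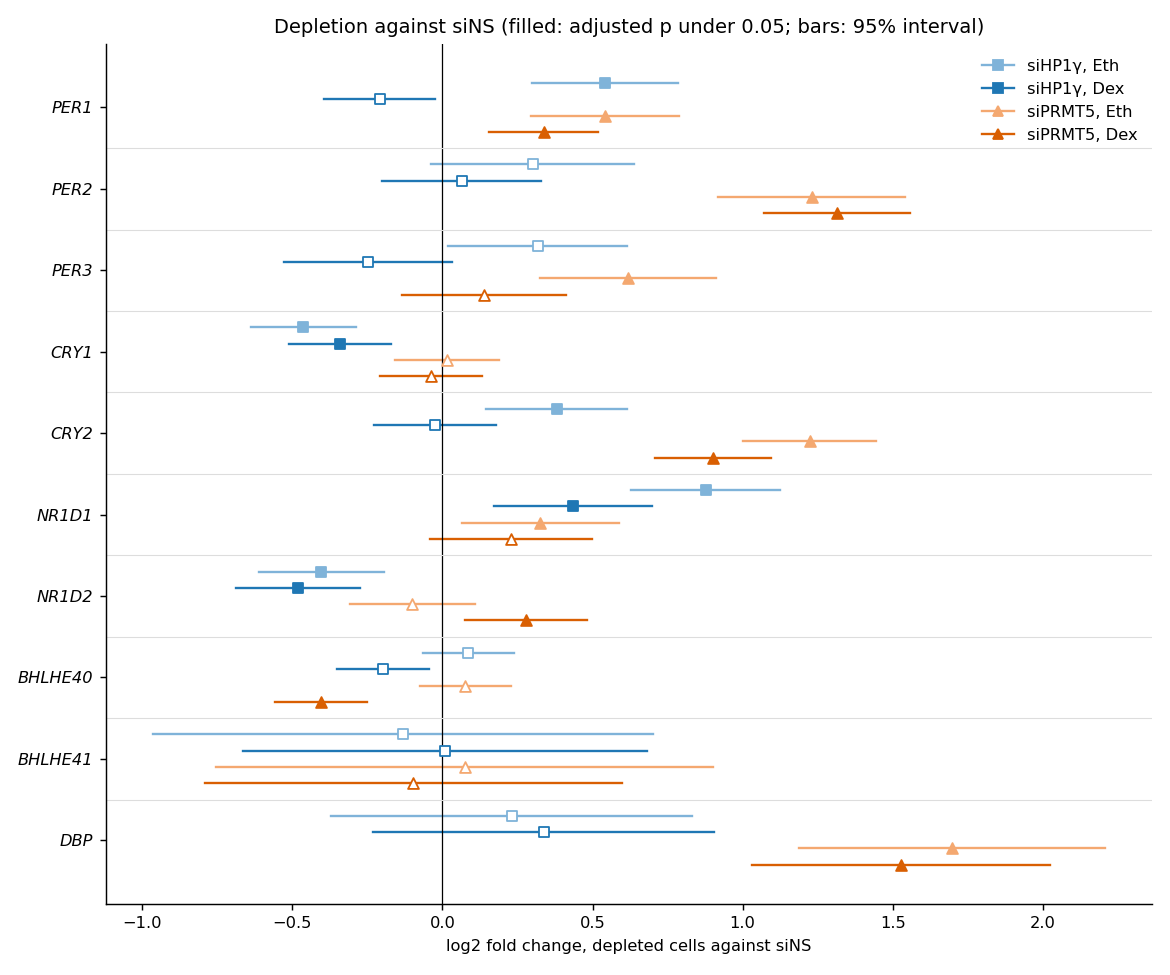
log2 fold change of siHP1γ or siPRMT5 against siNS cells (horizontal axis), with Eth or with Dex, for the 10 clock genes, with bars for the 95% interval. Filled marks had an adjusted p-value under 0.05; CRY1 and NR1D2 lie below 0 with siHP1γ, and PER2, CRY2 and DBP lie above 0.7 with siPRMT5 whatever the treatment.

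Depletion of PRMT5 moved 6 of the 10 clock genes in Eth cells, all higher, against 42.1% of all genes (20.6% higher and 21.6% lower). These were PER1, PER2, PER3, CRY2, NR1D1 and DBP. In Dex cells it moved 6 (comparison C), against 42.4% of all genes (20.6% higher and 21.9% lower), with PER1, PER2, CRY2, NR1D2 and DBP higher and BHLHE40 lower. The median log2 difference of the 10 clock genes was 0.43 with Eth and 0.25 with Dex, beside 0.00048 and 0.0021 over all genes. Libraries did not overlap for 6 clock genes with Eth and for 6 with Dex, against 49.1% and 51.5% of all genes. The siNS Dex libraries enter comparisons A, B and C alike, and the depletions with Eth share the siNS Eth libraries.

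DBP, the D-box activator that serves as an output of the clock, lies at chr19:48630030-48637379 on the minus strand and had few counts, between 9 and 76 per library. In siNS cells it had 2.98, 2.75 and 0.932 CPM with Eth and 2.56, 1.74 and 2.36 CPM with Dex. In siHP1γ cells it had 2.97, 2.15 and 2.70 CPM with Eth and 2.20, 3.32 and 3.10 CPM with Dex. In siPRMT5 cells it had 7.51, 7.75 and 6.40 CPM with Eth and 7.43, 6.0 and 6.11 CPM with Dex, so all 6 siPRMT5 libraries stood above the other 12. The difference was 3.24-fold with Eth (1.70 ± 0.247, adjusted p = 4.09e-06) and 2.89-fold with Dex (1.53 ± 0.241, adjusted p = 1.23e-05). The Dex difference of DBP was within the intervals of -0.59 to 0.64 in siNS cells, -0.42 to 0.68 in siHP1γ cells and -0.56 to 0.27 in siPRMT5 cells. In siNS cells a change of 1.5-fold in either direction was thus not excluded at this depth. DBP shares 661 exon bases (10.2% of its exon length) with SPHK2 on the opposite strand, and SPHK2 differed by 0.07 with Eth (adjusted p = 0.724) and -0.03 with Dex (adjusted p = 0.891) upon siPRMT5.

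PER2 was 2.35-fold higher in siPRMT5 than in siNS cells with Eth (1.23 ± 0.151, adjusted p = 3.04e-07) and 2.49-fold higher with Dex (1.31 ± 0.118, adjusted p = 1.67e-09). CRY2 was 2.34-fold higher with Eth (1.22 ± 0.108, adjusted p = 1.05e-09) and 1.87-fold higher with Dex (0.90 ± 0.0936, adjusted p = 1.97e-08). PER1 was higher by 1.46-fold with Eth (adjusted p = 0.000674) and by 1.26-fold with Dex (adjusted p = 0.00303). NR3C1, the gene of GR, differed between siPRMT5 and siNS cells by 0.18 with Eth (adjusted p = 0.121) and by 0.31 with Dex (adjusted p = 0.0062), and its part in these values was not tested.

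PER3 was 1.53-fold higher in siPRMT5 cells with Eth (0.62 ± 0.143, adjusted p = 0.00103), and with Dex the difference was 0.14 (95% interval -0.13 to 0.41). NR1D1 was higher by 0.33 with Eth (adjusted p = 0.0415), a call that was lost without siNS Eth replicate 1 (0.27) or 3 (0.30), without siPRMT5 Eth replicate 1 (0.33), 2 (0.31) or 3 (0.34), with no filter on low counts (adjusted p = 0.0596) and with DESeq2 (adjusted p = 0.0601). NR1D2 was higher by 0.28 with Dex (adjusted p = 0.0259), a call lost without siNS Dex replicate 1 (0.24) or siPRMT5 Dex replicate 2 (0.20). BHLHE40 with Dex was lower by -0.40 ± 0.0747 (adjusted p = 9.22e-05), and with Eth the difference was 0.08 (95% interval -0.08 to 0.23). CRY1 differed by 0.01 with Eth (95% interval -0.16 to 0.19) and -0.04 with Dex (95% interval -0.21 to 0.13).

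BHLHE41 (DEC2; chr12:26120030-26125037, minus strand), the relative of BHLHE40, was scarce in all conditions, with 7 to 24 counts per library. Its means were 1.21 ± 0.598 CPM in siNS Eth cells and 1.77 ± 0.461 CPM in siNS Dex cells, and its libraries ranged from 0.725 to 2.35 CPM over all conditions. No comparison passed. The 95% interval of its Dex difference was -0.21 to 1.3 in siNS cells, which at this depth does not exclude an increase of 1.5-fold. BHLHE41 shares 162 exon bases with SSPN on the opposite strand, a gene with 28 to 80 counts per library. PER3 shares 868 with UTS2, also on the opposite strand, which had at most 3 counts in any library.

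The RefSeq promoter windows of the 10 genes (300 bases, from 250 before the start site to 50 from it, in GRCh38.p14, 13 windows in all) were searched on both strands for the letters of clock motifs. The E-box CACGTG was found at 4 of the 10 genes, PER1, NR1D2, BHLHE40 and BHLHE41, and at 8.77% of the 27305 genes with a window. The D-box, written as TTATGTAA or TTACGTAA, was found at 3, PER2, PER3 and NR1D2, and at 1.27% of all genes. NR1D2 had its E-box and D-box matches only in window 2 of its 2 windows, within the annotated gene. PER3 had its match only in window 1 of 2. The element AGGTCA of the ROR and REV-ERB receptors was found at PER1 and CRY2 and at 16.5% of all genes. The single arm AGAACA of the GR element was found at BHLHE40 and at 17.5% of all genes. Its longer form, AGAACA and TGTTCT with any 3 bases between, was in no window of the 10 genes and in 1 of all 35116. In no window of CRY1, NR1D1 or DBP was any of these motifs found, which says only that these letters are not in those 300 bases. The E-box of BHLHE41, which passed in no comparison, is not shown. The stretches below show the E-boxes and D-boxes of genes with a Dex or depletion response past the thresholds. Each is read 5′ to 3′ on the strand of the gene and has 30 bases, with the motif in capitals. They lie at chr17:8152560-8152589 for PER1, chr2:238288595-238288624 for PER2, chr1:7784103-7784132 for PER3, chr3:4979187-4979216 for BHLHE40, and chr3:23945916-23945945, chr3:23945954-23945983 and chr3:23946004-23946033 for the D-box and both E-boxes of NR1D2.
PER1 E-box: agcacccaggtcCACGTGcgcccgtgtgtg
PER2 D-box: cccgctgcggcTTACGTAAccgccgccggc
PER3 D-box: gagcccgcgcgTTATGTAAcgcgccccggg
BHLHE40 E-box: tccaaCACGTGagactcatgtgatgaagcc
NR1D2 D-box: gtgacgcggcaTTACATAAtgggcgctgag
NR1D2 first E-box: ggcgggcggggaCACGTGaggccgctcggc
NR1D2 second E-box: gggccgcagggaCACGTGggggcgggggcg

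The motif of PER2 began 3 bases before the start site, that of PER3 177 bases before it. No Dex or depletion response past the thresholds was common to the 3 D-box genes. PER2 rose with Dex, PER3 and NR1D2 did not pass in any siRNA state, and NR1D2 with its pair of E-boxes was lower upon siHP1γ while PER2 and PER3 did not pass. Upon siPRMT5 PER2 (1.23) and PER3 (0.62) were higher with Eth, and PER2 (1.31) and NR1D2 (0.28) with Dex. The 4 E-box genes likewise differed, since PER1 rose and BHLHE40 fell with Dex in depleted cells.

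Of 21 other clock genes, listed by role and not picked for how they moved, 18 had enough counts to be tested. By edgeR's quasi-likelihood test 0 of the 18 passed the Dex thresholds in siNS, siHP1γ or siPRMT5 cells, where 5, 4 and 5 had an unadjusted p-value below 0.05, and DESeq2 called 0 in each. Of all genes, 2.71%, 1.67% and 5.44% passed in these states. The interactions likewise gave 0 calls, with 4 unadjusted p-values below 0.05 for siHP1γ and 3 for siPRMT5, and DESeq2 called 1 for siHP1γ, CSNK1D, and 0 for siPRMT5, against 0.399% and 3.80% of all genes by edgeR. ARNTL2, the gene of BMAL2, was lower with Dex in siNS cells by -0.39 (adjusted p = 0.0014), and CSNK1D, the gene of the kinase CK1δ that marks PER proteins for turnover, was higher by 0.48 (adjusted p = 5.23e-05), both under the 1.5-fold limit. The median log2 fold change upon Dex treatment in siNS cells was 0.00925 over the 18.

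Upon siHP1γ with Dex 7 of the 18 passed, 4 higher and 3 lower, against 24.0% of all genes. ARNTL, the gene of BMAL1 and the target that the REV-ERB receptors repress, was at 11.6 ± 0.405 CPM in siNS Dex cells and 23.3 ± 2.45 in siHP1γ Dex cells, a log2 difference of 1.0 (adjusted p = 6.12e-07). RORA, which activates that gene, NFIL3, which represses through D-boxes, and the deacetylase gene SIRT1 were higher by 0.35, 0.49 and 0.56. CSNK1D was lower by -0.80 (adjusted p = 1.38e-08), the CLOCK paralogue NPAS2 by -0.39 and the kinase gene GSK3B by -0.45. With Eth 9 passed, against 31.8% of all genes, among them ARNTL (0.73) and the D-box activator TEF (1.13), both higher.

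Upon siPRMT5 with Dex 11 of the 18 passed, 6 higher and 5 lower, against 42.4% of all genes. With Eth 11 passed, again 6 higher and 5 lower, against 42.1% of all genes. ARNTL2 was at 110 ± 3.34 CPM in siNS Dex cells and 50.3 ± 1.64 in siPRMT5 Dex cells, a log2 difference of -1.13 (adjusted p = 4.21e-11), and CLOCK and NPAS2 were lower by -0.42 and -0.35. FBXW11, a ubiquitin ligase gene, and TIMELESS were lower by -0.41 and -0.23. RORA, RORB, NFIL3, CSNK1D, CSNK1E and NONO were higher, by 0.41, 0.63, 0.20, 0.32, 0.42 and 0.22. Against the same siNS libraries, CSNK1D stood lower with siHP1γ and higher with siPRMT5, at 107 ± 4.42 and 233 ± 21.5 CPM with Dex beside 187 ± 3.84 in siNS cells. CIART, which encodes a repressor of CLOCK and BMAL1, was not tested. Its counts per library, not scaled for library size, were 1 to 4 in siNS Eth, 1 to 4 in siHP1γ Eth and 2 to 3 in siPRMT5 Eth cells. With Dex they were 3 to 10 in siNS, 6 to 7 in siHP1γ and 10 to 19 in siPRMT5 cells.

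**Figure D4:**
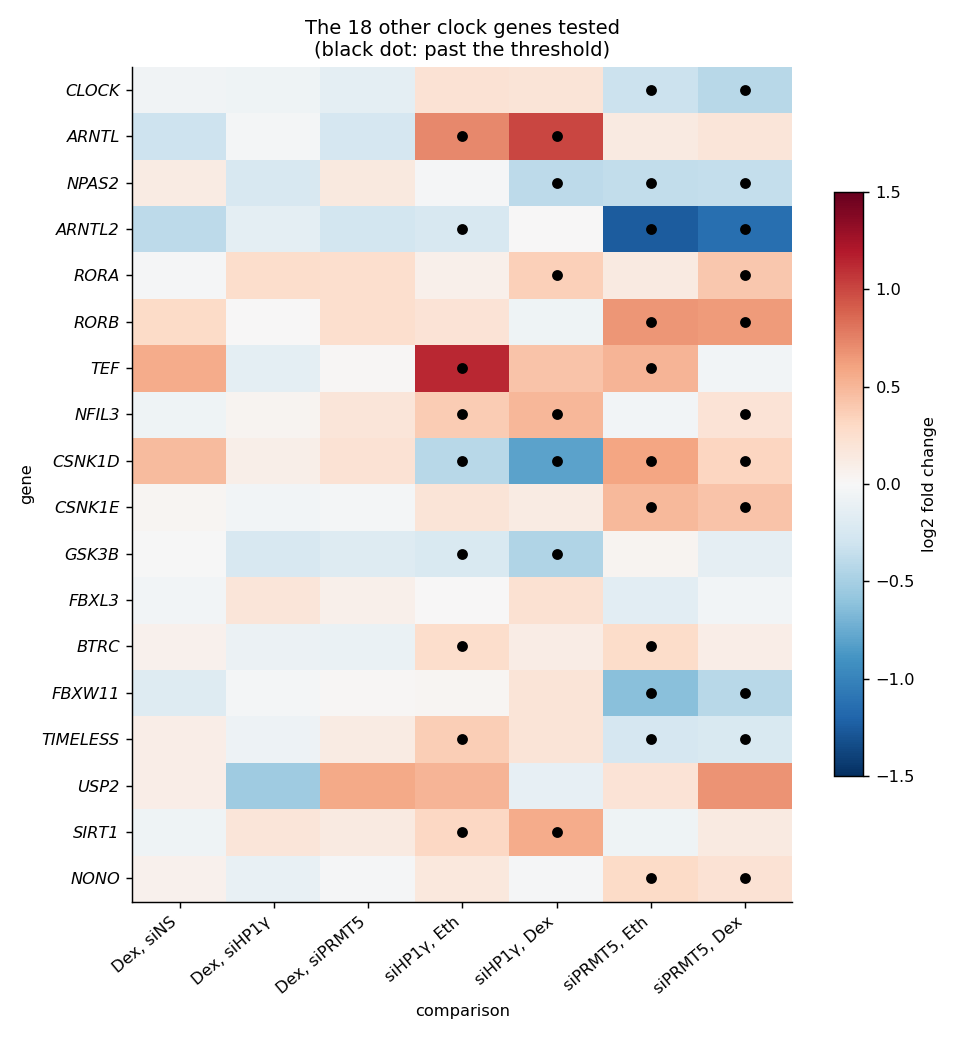
log2 fold changes (colour, red above 0 and blue below) of the 18 other clock genes tested, by comparison; black dots mark values past the threshold of the comparison. No dot stands in the 3 Dex columns, and ARNTL2 is at -1.24 with Eth and -1.13 with Dex upon siPRMT5.

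Across the 18 libraries, the levels of some clock genes ran together on the log2 CPM scale. PER2 and CRY2 had a Pearson r of 0.966, the highest of all pairs of the 10 genes, CRY1 and NR1D2 of 0.815, PER1 and BHLHE40 of -0.879, the lowest, and CRY1 and NR1D1 of -0.793. The libraries fall into 6 conditions and differ in depth, so these values describe the pattern over those conditions and carry no test. The genes most like a clock gene were sought among the genes tested other than the 10. Those most like PER1 were VSTM2L (r = 0.99), TBC1D8 and EFNB2 (both 0.982). Those most like PER2 were NTN4 (0.973), FLVCR2 (0.97) and CITED2 (0.966), and those most like CRY2 were MKNK2 (0.977), SH3RF3 (0.964) and HELZ2 (0.963).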

How the data were processed

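RNA from MDA-MB-231 cells gave 18 libraries (6 conditions, 3 replicates each), which were assigned to conditions by their titles. Per the labels, Bowtie2 2.4.2 was used with hg38 and HTSeq 0.9.1 for counting, and the authors deposited raw counts per gene symbol. Reads that span an exon junction can go uncounted, since this aligner keeps reads whole, and the annotation and strand setting are not given in the sources used here. A deposited table of the authors' own DESeq2 comparisons (Galaxy version 2.11.40.7, with fold changes and p-values) was not used.

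All 18 libraries entered an edgeR 4.0.16 quasi-likelihood fit (R 4.3.3) with a mean per condition, TMM scaling and filterByExpr, which kept 15298 of 60642 genes, with 12 residual degrees of freedom. P-values were adjusted by Benjamini-Hochberg over the 15298 genes. A standard error was the log2 fold change divided by the square root of F. CPM were scaled by TMM factors, which ranged from 0.969 to 0.987 in siNS, 1.02 to 1.04 in siHP1γ and 0.977 to 1.01 in siPRMT5 libraries. Totals of 8682992 to 12472381 counts set the precision. Within conditions, libraries differed beyond sampling noise (chi-square per degree of freedom 2.1 to 12.3). All 10 clock genes are named, and of the 21 other clock genes those called in comparison A, B or C. For each clock gene called in comparison A, the 3 genes outside the 10 with the highest Pearson r of log2 CPM are also named. ARNTL and TEF with Eth, ARNTL2 and CSNK1D with Dex, and CIART were named after their values were seen. The genes and lists were chosen with earlier results of these data known. Positions and overlaps are from GENCODE 44 on hg38, and promoter windows from RefSeq (GRCh38.p14). Alternatives were DESeq2 1.42.0, its size factors, unscaled library sizes, no filter, at least 10 counts in every library, other fold limits, a replicate block, the libraries of a comparison alone, and each library left out.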

Additional observations from a re-analysis of the deposited data

Results flagged for a closer look

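The Dex response of PER1 differed between siHP1γ and siNS cells by a test of the difference itself, with an interaction of -0.75 on the log2 scale (adjusted p = 0.0195), and the call was lost in 6 of the 12 fits with a library left out. The Dex response of BHLHE40 differed between siPRMT5 and siNS cells in the same way, with an interaction of -0.48 (adjusted p = 0.00854), and the call was kept in all 12 such fits.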

How the results depend on the processing

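The number of clock genes called was within 1.5 times the reported count in 66 of 69 settings other than leaving out a library. It became 5 for Dex in siNS cells and 6 for Dex in siPRMT5 cells with no fold limit at an adjusted p-value of 0.05, and 1 for Dex in siHP1γ cells at a 2-fold limit. With a library left out it ranged from 0 to 1 for the interaction with siHP1γ. Of single clock gene values, 600 of 611 kept direction and call, and 3 lost and 3 gained a call. The other 5 changed sign near 0 and none of them was called, which were PER3 with Dex in siPRMT5 cells with unscaled library sizes (-0.0146), at least 10 counts in every library (-0.000628) and the replicate block (-0.00389), CRY2 upon siHP1γ with Dex and unscaled library sizes (0.0556), and BHLHE41 upon siHP1γ with Dex and the block (-0.00295).

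With a library left out, 593 of 660 values kept direction and call, 19 lost and 5 gained a call, and 43 changed sign, of differences that had not been called. For Dex responses the ranges of those that changed sign were -0.35 to 0.28 for DBP in siNS cells, -0.21 to 0.050 for PER3 and -0.11 to 0.093 for NR1D2 in siHP1γ cells, and -0.054 to 0.10 for PER3 in siPRMT5 cells. Upon siHP1γ they were -0.059 to 0.26 for PER2, -0.074 to 0.031 for CRY2 and -0.22 to 0.20 for BHLHE41 with Dex, and -0.41 to 0.31 for BHLHE41 and -0.16 to 0.48 for DBP with Eth. Upon siPRMT5 they were -0.084 to 0.021 for CRY1 and -0.29 to 0.066 for BHLHE41 with Dex, and -0.053 to 0.091 for CRY1 and -0.46 to 0.51 for BHLHE41 with Eth. For the interaction with siHP1γ they were -0.16 to 0.039 for NR1D2, -0.30 to 0.41 for BHLHE41 and -0.14 to 0.48 for DBP. For the interaction with siPRMT5 they were -0.029 to 0.29 for PER2, -0.12 to 0.018 for CRY1, -0.20 to 0.034 for NR1D1, -0.60 to 0.37 for BHLHE41 and -0.41 to 0.21 for DBP. The cause of these changes was not tested.

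The deviations of same-numbered libraries from their condition means had a median r of 0.00663 over 45 pairs, from -0.186 to 0.315. Pairs with different numbers had a median of -0.00473, from -0.316 to 0.315. A pairing by number was thus not shown, and with 3 libraries per condition these values cannot exclude one. With the replicate number as a block, the same number of clock genes passed in every comparison, the interaction of PER1 with siHP1γ was -0.75 (adjusted p = 0.0246) and that of BHLHE40 with siPRMT5 was -0.48 (adjusted p = 0.0109). Over all genes the interaction with siHP1γ passed for 61 genes, for 94 with the block, 374 with no filter on low counts, 304 with DESeq2, and 20 to 186 with a library left out. With no fold limit, Dex called 1402 of all genes in siNS cells, 849 in siHP1γ cells and 2449 in siPRMT5 cells, and at a 2-fold limit 194, 106 and 373. For the interaction with siPRMT5, leaving out a library gave 319 to 819 genes against 582. The counts of BHLHE41 and DBP limit what can be detected for them.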
